A study of Mus musculus with 12 samples.

Results

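Slfn1 and Slfn8 are members of the Schlafen family, and their levels were read in RNA from CD31+ cells of mouse lung. The pair was chosen by gene name, with the deposited TET2 KO against WT values in view, because Slfn8 was higher in TET2 KO on both diets. The genotype differences of both genes are therefore described below without a test. They are 2 of the 9338 genes listed in at least 1 of 4 deposited tables, each of which lists only genes with an unadjusted p under 0.05 in the authors' own comparison. On chow, both genes are in the table of TET2 KO against WT. The table of this contrast on HFD and that of HFD against chow in TET2 KO hold Slfn8 alone of the pair, and the table of HFD against chow in WT holds Slfn1 alone.

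By its title, the series addresses what loss of TET2, a dioxygenase that oxidises methylated cytosine in DNA, does to endothelial cells at baseline and under a high fat diet (HFD). All 12 mice were male, on the C57Bl/6J background, carried TET2fl/fl and received tamoxifen at 40 mg/kg on 3 days in a row when 6 to 8 weeks old. WT mice lacked Cre, and TET2 KO mice carried Cdh5-CreERT2, a tamoxifen-inducible Cre driven by the promoter of the endothelial cadherin gene, so that recombination is directed at endothelial cells and not at other cells in the CD31+ fraction. Mice ate chow (13% of energy from fat) or HFD (60%) for 20 weeks and were studied at 30 weeks of age, with 3 mice and 1 library per mouse in each of the groups WT chow, TET2 KO chow, WT HFD and TET2 KO HFD. The libraries held 36.7 to 56.8 M reads on genes (median 39.6 M), with WT HFD replicate 1 the deepest. Tet2 itself is not listed for either genotype comparison, so the genotype of a library rests on its label.

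Schlafen proteins are found in mammals, and the mouse genes lie side by side in 1 cluster on chromosome 11, apart from the Schlafen-like gene Slfnl1 on chromosome 4. The short members, such as Slfn1, hold little more than the shared Schlafen core, whereas the long members, such as Slfn5, Slfn8, Slfn9 and Slfn14, add a helicase-like region. The family is known for roles in the growth and quiescence of T cells and for being induced by type I interferon, which acts through the receptor Ifnar1/Ifnar2, the kinases Jak1 and Tyk2 and a complex of transcription factors that holds Irf9. The complex binds a DNA element called the interferon-stimulated response element (ISRE).

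Slfn8 (ENSMUSG00000035208) lies on the minus strand of chromosome 11 at chr11:83002158-83020810 and Slfn1 (ENSMUSG00000078763) on the plus strand at chr11:83116849-83122670, in mm10 (GRCm38) coordinates. Beside Slfn8 lies Slfn9, also a long member, at chr11:82978390-82991830. In GENCODE release M21 Slfn1 has 1 transcript of 2 exons, while Slfn8 has 6 transcripts of 2 to 6 exons. The 250 bases before a RefSeq start of each of these genes (GRCm38.p6) are shown because 2 of the windows carry the same ISRE letters and the other carries none. Capitals mark a match to GAAANNGAAA or, on the other strand, TTTCNNTTTC.
Slfn8, chr11:83020811-83021060, minus strand: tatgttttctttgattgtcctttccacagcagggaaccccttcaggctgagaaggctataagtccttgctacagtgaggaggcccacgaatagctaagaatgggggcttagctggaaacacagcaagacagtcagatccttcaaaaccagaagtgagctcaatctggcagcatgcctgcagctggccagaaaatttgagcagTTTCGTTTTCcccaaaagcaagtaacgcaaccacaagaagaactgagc
Slfn9, chr11:82991831-82992080, minus strand: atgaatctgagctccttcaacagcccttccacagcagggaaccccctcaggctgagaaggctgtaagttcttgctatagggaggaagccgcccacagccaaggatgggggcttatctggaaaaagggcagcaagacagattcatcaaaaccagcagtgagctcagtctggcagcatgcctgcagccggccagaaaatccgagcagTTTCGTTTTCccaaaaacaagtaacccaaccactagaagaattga
Slfn1, chr11:83116570-83116819, plus strand: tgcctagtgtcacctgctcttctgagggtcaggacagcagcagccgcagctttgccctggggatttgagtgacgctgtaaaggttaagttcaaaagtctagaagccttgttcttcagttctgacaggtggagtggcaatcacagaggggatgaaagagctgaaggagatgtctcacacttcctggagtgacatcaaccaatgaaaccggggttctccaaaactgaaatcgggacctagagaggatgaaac

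The match TTTCGTTTTC lay 48 to 39 bases before the start of Slfn8 used for this window and 136 to 127 bases before a second RefSeq start of that gene. It lay 45 to 36 bases before the start of Slfn9, and the printed windows of Slfn8 and Slfn9 were identical at 80.2% of aligned positions. Slfn1 and Slfn8 were identical at 52.9%. Slfn5, another long member, held GAAAAAGAAA 155 to 146 bases before a RefSeq start. That start and its window lie inside the span of Slfn5 in GENCODE M21. Of all 32851 RefSeq windows of this length, 2.98% held the motif on either strand. The windows of Slfn1, Slfn2, Slfn3, Slfn4, Slfn14 and Slfnl1 held no match to these letters, and none of the Schlafen windows held the interferon gamma activated site TTCNNNGAA, which 7.02% of all windows held. The windows held few CG dinucleotides, the pair of bases at which TET2 substrates mostly occur, with 3 in Slfn8, 4 in Slfn9 and 4 in Slfn1 beside a median of 6 over all windows.

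Slfn8 was a low-abundance transcript in every group. Its level in FPKM (fragments per kilobase of gene length, scaled to the total reads of the library) was 1.98, 1.43 and 1.498 in the WT chow libraries (replicates 1 to 3). In TET2 KO chow it was 4.25, 1.51 and 6.33. In WT HFD it was 1.36, 1.48 and 1.15, and in TET2 KO HFD 1.60, 2.12 and 1.71. On chow, 2 of the 3 TET2 KO libraries were above every WT library, whereas replicate 2 lay inside the WT range. On HFD all TET2 KO libraries were above all WT libraries, by a narrower margin. The groups did not overlap, in either direction, for 74.7% of the genes listed for this contrast.

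The reads behind these levels were few but countable in every library. Slfn8 had 355, 215 and 239 reads in WT chow and 742, 256 and 1025 in TET2 KO chow. It had 317, 240 and 185 reads in WT HFD, where the deepest library was replicate 1, and 274, 341 and 266 in TET2 KO HFD. After normalisation, the SD between mice was larger than counting error alone in every group, least so in WT HFD (27.9 beside 14.96 normalised reads).

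In TET2 KO chow, Slfn8 averaged 4.03 ± 2.42 FPKM (SD, n = 3). The next levels were 1.81 ± 0.28 in TET2 KO HFD, 1.64 ± 0.30 in WT chow and 1.33 ± 0.17 in WT HFD. No neighbours in this order were apart, since each pair of adjacent groups overlapped in its library values. Replicates 1 and 3 of TET2 KO chow were 2.60-fold and 3.87-fold above the WT chow mean, while replicate 2 was at 0.923 of it. The TET2 KO HFD libraries were 1.20-fold, 1.59-fold and 1.28-fold above the WT HFD mean.

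**Figure D1:**
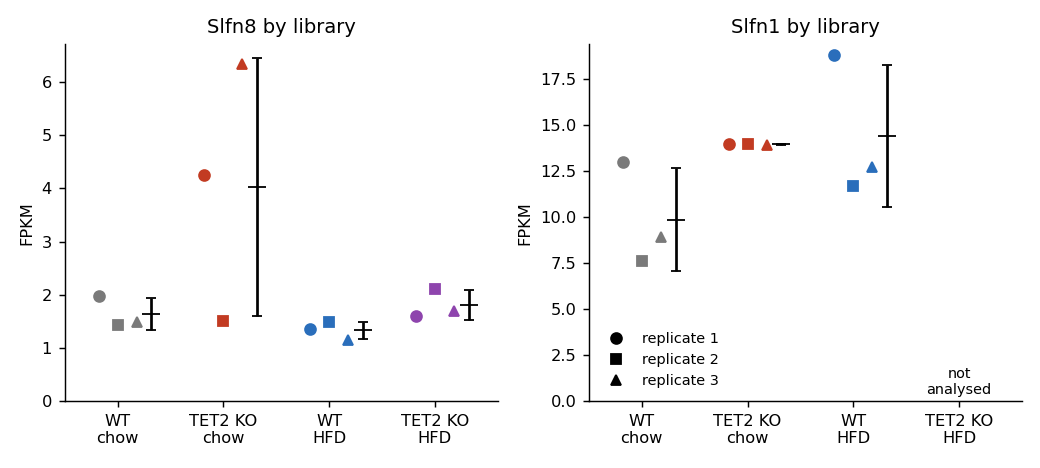
FPKM of Slfn8 (left) and Slfn1 (right) in each library, by group. Symbols are replicates 1 to 3 and black bars are the mean ± SD of 3 libraries. Slfn8 in TET2 KO chow ranges from 1.51 to 6.33 FPKM, while Slfn1 in TET2 KO chow stays between 13.9 and 14.0, and Slfn1 was not analysed in TET2 KO HFD.

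As a fitted difference, Slfn8 had a log2 fold change of 1.30 for TET2 KO relative to WT on chow (SE 0.47) and of 0.44 on HFD (SE 0.19). The chow value leaned on single libraries: it was 0.81 without TET2 KO chow replicate 3 and 1.69 without replicate 2. The difference was 0.86 smaller on HFD than on chow (log2 scale, SE 0.55, from the fit over all 4 groups). These are values of the contrast by which Slfn8 was chosen. A gene is called here where the unadjusted p of edgeR's quasi-likelihood test was under 0.05. For scale, 76.6% of the genes listed for the genotype contrast on chow were called, and 82.3% of those on HFD.

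Slfn1 was the more abundant of the pair. Its mean FPKM was 6.03-fold that of Slfn8 in WT chow, 3.46-fold in TET2 KO chow and 10.8-fold in WT HFD. It measured 13.0, 7.64 and 8.94 FPKM in WT chow, 13.96, 14.00 and 13.93 in TET2 KO chow, and 18.8, 11.7 and 12.7 in WT HFD. All TET2 KO chow libraries were above all WT chow libraries, as was so in either direction for 74.7% of the genes in that table, and the closest was WT chow replicate 1. WT HFD replicate 1 stood above every other library. Slfn1 was not listed in either table that holds the TET2 KO HFD libraries, and its level there was not analysed here.

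The group means of Slfn1 were 14.4 ± 3.85 FPKM in WT HFD, 14.0 ± 0.036 in TET2 KO chow and 9.87 ± 2.81 in WT chow (SD, n = 3). WT HFD overlapped both other groups. The fitted difference between TET2 KO and WT on chow was 0.49 on the log2 scale (SE 0.22), and 0.76 without WT chow replicate 1. The TET2 KO chow libraries lay very close together in Slfn1, although they were the most spread group in Slfn8. In normalised read counts, the SD of Slfn1 in TET2 KO chow was 5.002 around a mean of 1066, beside 32.6 for counting error alone, taken as the square root of the mean. For Slfn8 in the same libraries it was 405.7 around a mean of 675.9, beside 26.0. An SD below counting error alone, as for Slfn1, cannot show how little the mice differed.

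The diet comparisons ask whether HFD moves the pair within a genotype. They use the same libraries as the contrast that chose the genes, so their p-values are not independent of that choice. In TET2 KO, Slfn8 was lower on HFD than on chow by a log2 fold change of -1.15 (SE 0.45). It was called by edgeR, as were 77% of the genes listed for this comparison, and did not pass after Benjamini-Hochberg adjustment over the 9338 genes (adjusted p = 0.344). TET2 KO chow replicate 2 was below all 3 TET2 KO HFD libraries, while replicates 1 and 3 were above them all. Without TET2 KO chow replicate 3 the change was -0.67 and no longer called, and without replicate 2 it was -1.55. The call was also lost without TET2 KO chow replicate 1 (-1.11), TET2 KO HFD replicate 1 (-1.07) or TET2 KO HFD replicate 3 (-1.12). It was lost too with limma-trend (-0.94), with TMM scaling (-0.95) or with the replicate number as a block (-0.97). TMM scaling sets the libraries by a trimmed mean of gene ratios, taken here over listed genes only, most of which were called.

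In WT, the fit over the 975 genes with values in all 12 libraries gave Slfn8 a change of -0.29 with HFD (SE 0.39, edgeR adjusted p = 1). It was not called, in a set where 85.9% of genes were. The sign of this value turned with TMM scaling, to 0.12, where the scaling used only those 975 genes. With library totals it was -0.30. Over both genotypes, Slfn8 changed by -0.59 with HFD on the log2(FPKM + 0.1) scale. A two-sided exact permutation of the diet labels within each genotype gave p = 0.12, and 0.005 is the smallest p that its 400 arrangements allow. That p was 0.01 without TET2 KO chow replicate 2.

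Slfn1 in WT was higher on HFD by a log2 fold change of 0.55 (SE 0.26, edgeR adjusted p = 0.0913). It was not called, while 91.6% of the genes in its table were. It was called with the replicate number as a block (0.56, SE 0.13) and in a fit that added the TET2 KO chow libraries (0.55, SE 0.24). The value depended on the deepest library, and was 0.31 without WT HFD replicate 1. Without WT chow replicate 1 it was 0.80 and was called. The 3 libraries of WT HFD overlapped those of WT chow, whereas 86.5% of the genes in this table did not overlap.

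Of the 10 Schlafen genes looked for, 7 were listed in at least 1 table (Slfn1, Slfn3, Slfn5, Slfn8, Slfn9, Slfn14 and Slfnl1), and Slfn2, Slfn4 and the pseudogene Slfn10-ps were not analysed here. Slfn9, a neighbour of Slfn8, was listed only for the genotype contrast on HFD. It measured 7.52, 7.84 and 6.48 FPKM in WT HFD and 8.31, 11.1 and 10.9 in TET2 KO HFD, without overlap, as did 74.7% of the genes in that table. Its log2 fold change of 0.48 (SE 0.17, edgeR adjusted p = 0.123) stood beside 0.44 for Slfn8 in the same libraries. With TMM scaling Slfn9 was not called (0.43).

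Reads of Slfn8 and Slfn9 may not be fully separable. Of all 50-base stretches of the annotated Slfn8 transcripts, 14.6% also occurred in transcripts of another gene, mostly Slfn10-ps and Slfn9, and 3.38% of the 100-base stretches did. For Slfn1 the shares were 0.606% and 0%. How the authors' counting treated reads that fit several genes is not given in the sources used here, so the Slfn8 and Slfn9 counts are uncertain to that extent.

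Slfn5, another long member, was the other Schlafen gene with values in all 12 libraries. It measured 17.4, 17.8 and 22.2 FPKM in WT chow and 38.1, 34.5 and 24.2 in WT HFD. It measured 23.9, 18.5 and 11.5 in TET2 KO chow and 64.3, 35.1 and 22.2 in TET2 KO HFD. WT groups did not overlap, and TET2 KO groups overlapped through the low replicate 3 on HFD. Slfn5 rose by 0.76 on the log2 scale with HFD in WT (SE 0.19, edgeR adjusted p = 0.0245). In the fit over all 4 groups that was used for Slfn8 it was not called (0.76, SE 0.37, edgeR adjusted p = 0.669). In TET2 KO its value was 1.17 (SE 0.41, edgeR adjusted p = 0.344), the opposite sign of the Slfn8 value in the same libraries. The antisense transcript Slfn5os overlaps Slfn5 and had 5 to 20 reads per TET2 KO library, with a change of 1.36 (SE 0.50, edgeR adjusted p = 0.344) for HFD. Whether counting used the strand is not stated, so its reads cannot be told apart from those of Slfn5.

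Slfn3, of the intermediate group of Schlafen genes, had 0.798 to 1.35 FPKM in WT chow and 1.37 to 2.72 in WT HFD, a log2 fold change of 0.83 (SE 0.32, edgeR adjusted p = 0.0558). Slfn14, known for its role in red cell and platelet precursors, had no more than 14 reads in a library and none in TET2 KO chow replicate 1. Its values were -2.0 in TET2 KO relative to WT on chow (SE 0.72, edgeR adjusted p = 0.434) and -1.84 for HFD in WT (SE 0.59, edgeR adjusted p = 0.0375), against the direction of Slfn1 in both comparisons. Slfnl1 had 4 to 26 reads per library and values of 1.37 between genotypes on HFD (SE 0.50, edgeR adjusted p = 0.125) and 1.29 for HFD in TET2 KO (SE 0.43, edgeR adjusted p = 0.338). At so few reads counting error is a large part of the spread. In the fits of single tables these values of Slfn9, Slfn5, Slfn3, Slfn14 and Slfnl1 were called, and those of Slfn5 and Slfn14 with HFD in WT also passed the adjustment. Members of the cluster thus had values of different signs in the same libraries.

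**Figure D2:**
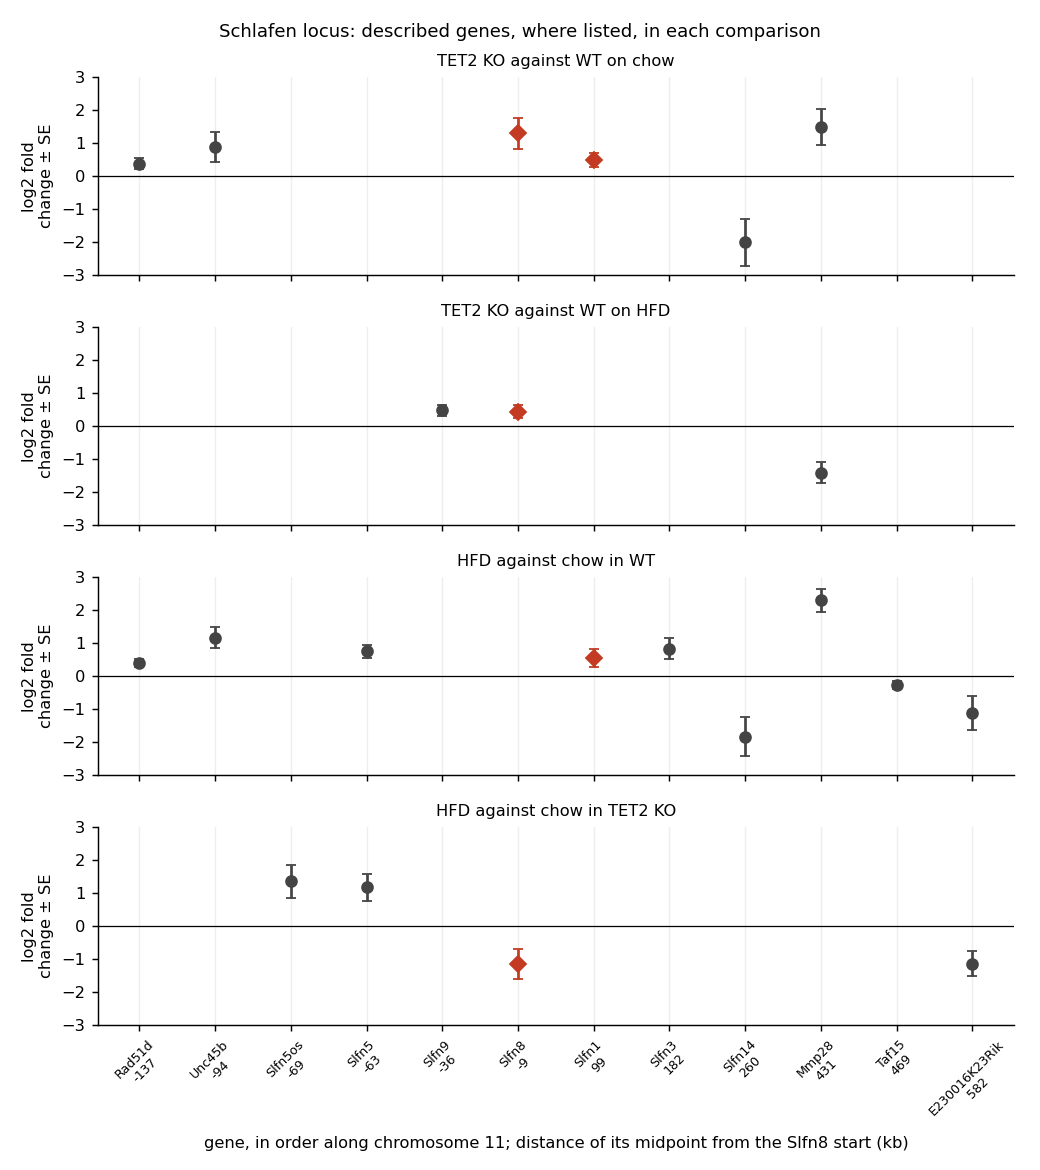
Log2 fold change ± SE (y axis) of the described genes of the Schlafen locus, in their order along chromosome 11 (x axis, with the distance of each midpoint from the Slfn8 start in kb), in each of the 4 comparisons. Red diamonds are Slfn8 and Slfn1, grey circles the other genes, and a described gene without a point was not listed for that comparison. Slfn8 is above 0 in both genotype comparisons and below 0 for HFD in TET2 KO, where Slfn5 is above 0.

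Genes that flank the cluster were read in the same way, and 7 of 14 were listed, of which 6 are described. Mmp28, a secreted metalloproteinase, measured 1.04, 0.858 and 1.65 FPKM in WT chow, 6.13, 1.42 and 2.34 in TET2 KO chow, 8.27, 4.99 and 4.14 in WT HFD, and 2.83, 2.22 and 1.504 in TET2 KO HFD. It was called in both genotype comparisons, 1.48 higher in TET2 KO on chow (log2 scale, SE 0.54, edgeR adjusted p = 0.434) and lower on HFD by a log2 fold change of -1.40 (SE 0.32, edgeR adjusted p = 0.118), so it did not share the sign of Slfn8 on HFD. The highest TET2 KO chow library was replicate 1 for Mmp28 and replicate 3 for Slfn8. HFD raised Mmp28 in WT by 2.30 (SE 0.35, edgeR adjusted p = 0.0140).

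Unc45b, a myosin chaperone, and Rad51d, a homologous recombination factor, had values of 0.88 (SE 0.46) and 0.38 (SE 0.17) for TET2 KO relative to WT on chow. Neither was called in the main fit, while Rad51d was with TMM scaling (0.40). Unc45b in TET2 KO chow replicates 2 and 3 (0.903 and 1.22 FPKM) lay inside the WT chow range. Unc45b and Rad51d rose with HFD in WT, by 1.16 (adjusted p = 0.0269 in the edgeR fit) and 0.40 (adjusted p = 0.0367 in the edgeR fit). With HFD in WT the values were -0.27 for Taf15, an RNA-binding protein, and -1.10 for the long non-coding transcript E230016K23Rik, with adjusted edgeR p of 0.0680 and 0.0896. E230016K23Rik was also lower on HFD in TET2 KO, at -1.14 (edgeR adjusted p = 0.338).

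The interferon pathway was read from lists of its ligands and receptors, transducers, inhibitors and targets, since Schlafen genes are known targets. On chow, the genotype table listed 15 of 40 targets. Of these 14 had positive values, with 10 called, and 1 had a negative value and was called. The 11 calls among 15 are near the 76.6% called of all genes in this table. Their median was 0.55 beside -0.37 over all 1298 listed genes. Oas3 and Oas2, sensors of double-stranded RNA, had values of 1.03 and 1.00 and the GTPase Iigp1 one of -0.93, all called, and Ifi44 one of 1.25, not called. Their adjusted p in the edgeR fit was 0.450 or more. The interferon lambda receptor Ifnlr1 had 0.61 (adjusted p = 0.450 in the edgeR fit). Slfn1 had 0.49 and Slfn8 1.30 in this contrast. The pair was chosen with these values in view, so no rank among the targets is read from them.

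On HFD the listed targets did not share the sign of Slfn8. The genotype table on HFD listed 8 of the 40 targets. All 8 were lower in TET2 KO and called, where 82.3% of all genes in the table were, with a median of -0.66 beside 0.33 over all 3939 listed genes. They were led by Ifi44 (-1.36), the membrane protein Ifitm3 (-0.70) and Xaf1 (-0.68), with adjusted p of 0.118 to 0.125 in the edgeR fit. The inhibitors Usp18 (-0.60) and Socs3 (-0.37) were lower too, while the kinase Jak2 (0.40) and the receptor chain Ifngr2 (0.34) had positive values, with adjusted edgeR p of 0.130 to 0.135. With TMM scaling Jak2 (0.34), Ifngr2 (0.28) and the target Psmb9 (-0.50) were not called. Slfn8 and Slfn9 were positive in the same libraries, at 0.44 and 0.48. A further 8 targets outside that table had values in the fit over all 4 groups, none of them called. Of these, 3 were positive, namely Oasl1 (0.41, SE 0.26), Mx2 (0.32, SE 0.27) and Isg15 (0.28, SE 0.22), and 5 were negative, namely Ifit3 (-0.53), Cmpk2 (-0.36), Gbp3 (-0.28), Ifit1 (-0.15) and Rsad2 (-0.11).

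With HFD in WT, 33 of the 40 targets were listed, and all 33 rose with an adjusted edgeR p under 0.05, as 5349 of the 7330 genes in the table changed in either direction. Their median was 1.07 beside -0.32 over all 7330 listed genes, and Ifi44 (3.19), Ifit3 (2.67) and Ifit1 (2.15) rose most. Slfn1, at 0.55, was below the median of the targets and Slfn5 (0.76) was closer to it. The ligand Ifng (0.99), the transducer Irf7 (0.72) and the inhibitor Usp18 (1.62) also rose, with adjusted edgeR p of 0.0144 to 0.0300. In TET2 KO, 13 targets were listed for HFD against chow, all with positive values and 12 called, where 77% of all genes in the table were. Their median was 0.79 beside -0.51 over all 1628 listed genes. Iigp1 (1.84), Ifit1 (1.57) and Ifit3 (1.38) had the largest values, with adjusted p of 0.338 to 0.344 in the edgeR fit. Slfn8, at -1.15, had the opposite sign.

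**Figure D3:**
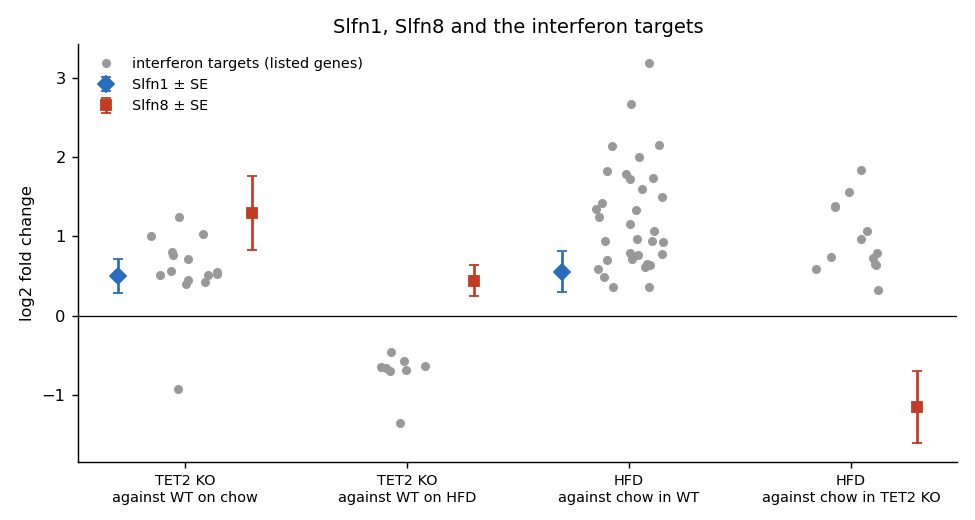
Log2 fold change (y axis) of the listed interferon targets (grey circles) beside Slfn1 (blue diamonds) and Slfn8 (red squares), the pair with SE, in the 4 comparisons (x axis). Slfn8 is positive where the 8 listed targets are negative (TET2 KO against WT on HFD) and negative where the 13 listed targets are positive (HFD against chow in TET2 KO).

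A pair of shorter lists bear on the known settings of the family. Of 10 genes of quiescence, Klf2, a factor of resting T cells and of endothelium under flow, rose by 1.04 with HFD in WT and Cdkn1b, a cell cycle inhibitor, by 0.34, while the antiproliferative gene Tob1 changed by -0.69, with adjusted edgeR p of 0.0229, 0.0454 and 0.0233. Cdkn1b was not called in WT with TMM scaling (0.33) or in the fit over all 4 groups (0.34, SE 0.17). Between genotypes on HFD the values were -0.47 for Klf2 and 0.54 for Tob1, and Cdkn1b had 0.37 for HFD in TET2 KO, none of them called. With TMM scaling these values of Klf2 (-0.51) and Cdkn1b (0.60) were called, and that of Tob1 (0.45) was not. Of 8 genes that write or remove DNA methylation or feed that removal, Tet1 rose by 0.90 and Tet2 by 0.35 with HFD in WT (adjusted p = 0.0303 and 0.0310 in the edgeR fit). Tet1 had -0.67 between genotypes on HFD (edgeR adjusted p = 0.123) and Idh1 had -0.69 for HFD in TET2 KO (edgeR adjusted p = 0.338). Neither list had a gene in the genotype table on chow.

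CD31 is also carried by leukocytes and platelets, and the libraries held RNA of several cell types. Endothelial markers were present: Cdh5 was at 47.8 to 118 FPKM in WT chow, 149 to 289.7 in WT HFD and 82.0 to 158 in TET2 KO HFD. The club cell gene Scgb1a1 averaged 3869 FPKM over the chow libraries, and the T cell receptor gene Trbc2 averaged 109 FPKM. In RNA of bulk cells, fewer cells of a type and less RNA per cell cannot be told apart.

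T cell markers moved with the pair on chow. Of 17 markers, 12 were listed for the genotype contrast on chow, all with positive values. Of these 9 were called, near the 76.6% of all genes in the table, led by Tcf7 (0.82), Trac (0.79) and Cd8a (0.77), with adjusted p of 0.4 in the edgeR fit. Their median was 0.58 beside -0.37 over all listed genes, none was at 0 in a library, and Trbc2 was the most abundant. Their summed level was 395, 249 and 291 FPKM in WT chow and 472, 409 and 554 in TET2 KO chow. WT chow replicate 1 was the highest of its group and TET2 KO chow replicate 2 the lowest of its own, and these sums did not overlap. Of the 12 single markers 6 did not overlap, beside 74.7% of all genes listed for this contrast. Trbc2 itself overlapped. The monocyte chemokine receptor gene Ccr2, the 1 listed of 11 markers of monocytes and macrophages, was higher in TET2 KO as well. It measured 5.95, 4.42 and 6.79 FPKM in WT chow and 9.55, 12.9 and 12.3 in TET2 KO chow, and was called (1.01, SE 0.20, edgeR adjusted p = 0.4). The macrophage genes Marco (0.12) and Mrc1 (-0.13), not listed on chow, were not called in the fit over all 4 groups. The part of the T cell markers and of Ccr2 in the Slfn1 and Slfn8 differences on chow was not tested.

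Listed markers of mesothelium, stroma and epithelium went the other way on chow. These were 4 of 5 mesothelial, 4 of 10 fibroblast and smooth muscle and 4 of 12 lung epithelial markers. All were lower in TET2 KO and called, with medians of -1.94, -1.13 and -1.09. Of all genes listed for this contrast, 76.6% were called. The unlisted stromal markers Pdgfra (0.19) and Pdgfrb (0.003) and the epithelial marker Epcam (-0.22) were not called in the fit over all 4 groups. The summed lung epithelial markers, mostly Scgb1a1, were at 4299.5, 5643 and 5634 FPKM in WT chow and 2879.9, 2363 and 3105 in TET2 KO chow. The mesothelial sums were only 4.21, 8.18 and 1.21 FPKM in WT chow and 1.30, 1.29 and 0.674 in TET2 KO chow, with Msln the most abundant, and those of the fibroblast and smooth muscle markers 8.12, 9.18 and 4.33 against 3.05, 3.18 and 3.86, with Dcn the most abundant. The NK cell genes Nkg7 and Prf1 had positive values of 0.74 and 0.81 (edgeR adjusted p = 0.402 and 0.467). No endothelial marker was listed on chow.

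On HFD the T cell markers could be followed less well, since none of the 17 was in the genotype table on HFD. Cd8a, the T cell marker with values in all libraries, was at 12.9, 10.8 and 9.67 FPKM in WT HFD and 8.93, 7.74 and 11.1 in TET2 KO HFD, so the groups overlapped and the mean was lower in TET2 KO, where Slfn8 was higher. Endothelial markers were lower in these libraries: 11 of 14 were listed, all with negative values. Of these 9 were called, near the 82.3% of all genes in the table, led by Egfl7 (-1.38), Eng (-1.07) and Tek (-1.02), with adjusted p of 0.118 to 0.130 in the edgeR fit. Their summed level was 1497, 1179.8 and 851 FPKM in WT HFD and 822, 449.8 and 503 in TET2 KO HFD, with Cldn5 the most abundant.

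Listed markers of several other cell types were lower in TET2 KO on HFD too. Both lung epithelial markers (Ager at -1.06 and Hopx at -0.73), both dendritic cell markers (Clec9a at -0.78 and Cd209a at -0.66) and Ccr2 (-1.05) were called, with adjusted p of 0.118 to 0.126 in the edgeR fit, and the NK cell receptor gene Ncr1 had -1.14 and was not called. The mesothelial gene Msln was the exception, at 2.07, 0.658 and 0.917 FPKM in WT HFD and 1.41, 3.16 and 2.56 in TET2 KO HFD (0.96, not called). Of all genes listed for this contrast, 82.3% were called. Not listed there, the macrophage genes Marco (0.41) and Mrc1 (0.01) had positive values in the fit over all 4 groups, neither called. The lung epithelial sums were 85.3, 73.3 and 70.3 FPKM in WT HFD and 48.0, 28.8 and 44.1 in TET2 KO HFD. The dendritic cell sums were 13.1, 10.2 and 10.5 FPKM in WT HFD and 7.97, 5.92 and 6.34 in TET2 KO HFD. The part of the endothelial or any of these differences in that of Slfn8 was not tested.

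Marker lists also differed in the diet comparisons. In TET2 KO, 6 T cell markers were listed for HFD against chow, all with negative values (median -0.60). Of these 5 were called, where 77% of all genes in the table were. Their sums did not overlap (309, 280.4 and 343 FPKM on chow, 212, 189 and 242 on HFD, with Tcf7 the most abundant), as was so for 72.6% of the single genes listed. With TMM scaling none of the 6 was called, and their values shrank, that of Cd8a from -0.62 to -0.37 and that of Cd2 from -0.34 to -0.09.

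All 4 listed monocyte and macrophage markers were lower on HFD in TET2 KO as well, with a median of -0.81. Of these 3 were called, near the 77% of all genes in the table. Their sums, mostly the lysozyme gene Lyz2, were 4482, 5551 and 3965 FPKM on chow and 1998, 3388 and 3120.5 on HFD, without overlap. Of the 4 single markers 2 did not overlap, beside 72.6% of all genes listed. With TMM scaling Lyz2 was not called (-0.47), while the mannose receptor gene Mrc1 (-0.68) and the scavenger receptor gene Marco (-0.75) were. The neutrophil collagenase gene Mmp8 had -1.34 and was called, also with TMM scaling (-1.08). All 4 listed mesothelial markers were higher and called, with a median of 1.99 and sums of 1.30, 1.29 and 0.674 FPKM on chow and 3.09, 6.26 and 5.37 on HFD. All 4 listed fibroblast and smooth muscle markers were higher, 2 of them called and all 4 with TMM scaling, with a median of 1.06 in the main fit. Of the other lists, the dendritic cell gene Cd209a (-0.76), the endothelial gene Emcn (0.98) and the epithelial genes Epcam (-0.60) and Muc5b (1.31) were called, while the NK cell gene Gzma (1.13) and the B cell gene Ebf1 (0.49) were not. With TMM scaling Cd209a (-0.49) and Epcam (-0.32) were not called, while Gzma (1.32) and Ebf1 (0.73) were. The adjusted p of these markers was 0.299 or more in the main edgeR fit, and the part of any of these lists in the Slfn8 value was not tested.

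In WT, 3 T cell markers were listed and had positive values with HFD (median 0.51), as Slfn1 had, with sums of 64.4, 40.0 and 46.7 FPKM on chow and 85.1, 75.4 and 59.8 on HFD and Lck the most abundant. All 8 listed NK cell markers and all 13 listed endothelial markers were positive as well, with medians of 1.64 and 1.32. Other lists were mixed. The 5 listed monocyte and macrophage markers all passed the adjustment, with Ccr2 (1.38), the growth factor receptor gene Csf1r (1.21) and Ly6c2 (0.87) higher and Marco (-1.25) and Mrc1 (-1.05) lower on HFD, and adjusted edgeR p of 0.0144 to 0.0280. So did 5349 of the 7330 genes in the table. The neutrophil gene Retnlg was lower by a log2 fold change of -1.47 (edgeR adjusted p = 0.0424), and the 6 lung epithelial and 4 fibroblast and smooth muscle markers listed were split evenly between the signs. The summed endothelial markers were 349.7, 301 and 849 FPKM in WT chow and 1585, 1272 and 895 in WT HFD, so that WT chow replicate 3 stood close to WT HFD replicate 3. The part of these markers in the Slfn1 value was not tested.

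The genes whose levels followed the pair most closely were ranked by Pearson's r of log2(FPKM + 1), as a description. For Slfn8, 704 genes with values in all 12 libraries and a mean of at least 1 FPKM were compared. The highest r were those of Art2b, an ADP-ribosyltransferase on the surface of T cells (0.70), Cd8a, the T cell coreceptor chain (0.69), Klhl3, an adaptor of a cullin ubiquitin ligase (0.67), L3mbtl3, a reader of methylated lysine (0.64), and Tspoap1 (0.57). The lowest were those of Endou, an endoribonuclease (-0.62), the sodium channel gene Scn7a (-0.56) and the pseudogene Ifi203-ps (-0.55). Art2b was highest in the same library as Slfn8, at 4.15 FPKM in TET2 KO chow replicate 3, and between 0.970 and 2.60 FPKM elsewhere. Without that library, 1 of the 5 genes stayed among the 5 highest.

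Slfn1 was compared with 956 genes over the 9 libraries that hold it. The highest r were those of Trim14, an adaptor in antiviral signalling (0.92), Ifit1bl1, of the interferon-induced IFIT family (0.89), Tab1, a partner of the kinase TAK1 (0.87), Fam160a2 (0.84) and Ms4a6b, a membrane protein of T cells (0.84). The lowest were those of the small RNA gene Gm23553 (-0.93), Mthfsl (-0.91) and the F-box gene Fbxo30 (-0.87). Trim14 measured 4.28, 3.71 and 3.62 FPKM in WT chow, 5.69, 5.19 and 5.26 in TET2 KO chow and 6.89, 5.08 and 5.003 in WT HFD, so that it shared with Slfn1 both the highest library and the even level in TET2 KO chow. The libraries fall into 3 or 4 groups, and genes listed for the same comparisons were all selected on the differences between them.

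**Figure D4:**
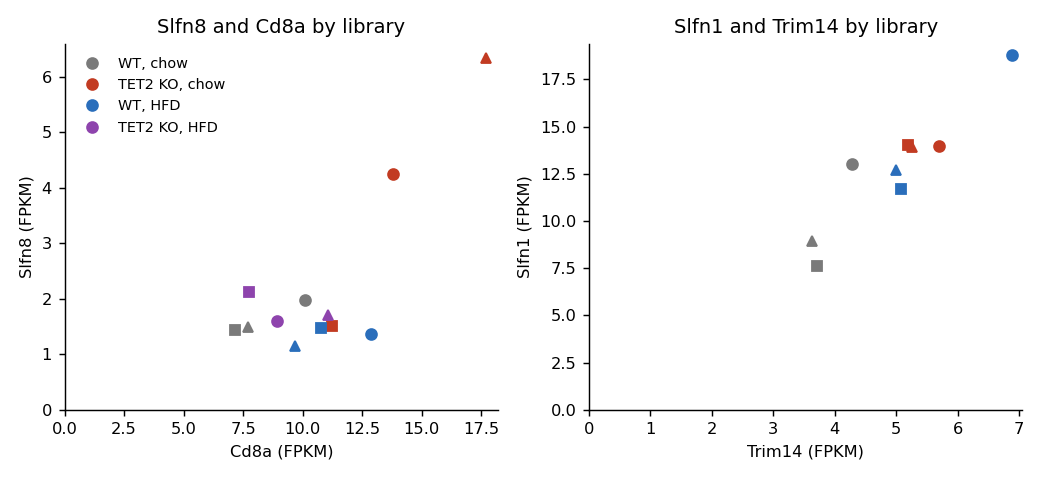
Left, Slfn8 against Cd8a in 12 libraries, and right, Slfn1 against Trim14 in 9 libraries, both axes in FPKM. Colours are the groups and symbols the replicates (circle 1, square 2, triangle 3). The 2 high Slfn8 points are TET2 KO chow replicates 1 and 3, which also have the highest Cd8a, and the highest Slfn1 and Trim14 are those of WT HFD replicate 1.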

How the data were processed

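RNA of CD31+ lung cells, enriched on magnetic beads, was sequenced with poly(A) selection and paired ends from 12 mice. Per the paper's methods, the authors aligned reads with HISAT2, took gene counts with featureCounts and compared groups with DESeq2, and the submitters' processing notes name the build mm10. Versions, annotation release and use of strand are not given in the sources used here. The authors deposited raw counts per gene and library, a normalised signal (counts divided by a DESeq2 size factor per library and table) and FPKM. Their deposited log2 fold change and p-value columns were not used. Each table lists only genes with an unadjusted p under 0.05 in the authors' test, so calls are conditional on that listing and the share of genes called is high by construction.

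Library totals and size factors were recovered from the deposited values. The main fit was by quasi-likelihood in edgeR 4.0.16 (R 4.3.3), with the 2 groups compared, over all listed genes, without covariates or filter, with Benjamini-Hochberg adjustment over the 9338 genes of the 4 tables. A gene was called at an unadjusted p under 0.05. Slfn8 in WT was fitted over 4 groups with the 975 genes that have all 12 libraries. Each fit held fewer genes than the adjustment counts, so adjusted p-values are no lower than over the fitted genes alone. The step was tested on simulated data: for TET2 KO against WT on chow it recovered 82 of 91 genes changed by 1 on the log2 scale and 109 of 109 changed by 2, with 7 false calls among 1298 genes. For HFD against chow in WT it recovered 49 of 86 and 112 of 114, with 5 false calls among 7330 genes. These counts do not give the error of the calls at an unadjusted p used in this report. Alternatives were DESeq2 1.42.0, limma-trend 3.58.1, other scalings (TMM, library totals), a mean of at least 10 counts, other groups in the fit, a replicate block and leaving out each library. TMM takes most genes as unchanged, but here it saw listed genes only, most of which were called. A change under TMM is therefore not a neutral check of the scaling.

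The named genes were both members, every listed Schlafen gene and locus neighbour, up to 3 genes per direction, list and comparison with the largest fold change, and the 5 most and 3 least similar genes. Some genes that this rule names are not reported here. Similarity for Slfn1 used 9 libraries, a change made after seeing the data. Members and lists were chosen with earlier results of these data known. Mice are separate animals, and sequences are from RefSeq (GRCm38.p6) and GENCODE M21.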

Additional observations from a re-analysis of the deposited data

How the results depend on the processing

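The value of Slfn8 in TET2 KO against WT ranged from 0.81 to 1.69 on chow and from 0.31 to 0.53 on HFD with single libraries left out, and that of Slfn1 on chow from 0.34 to 0.76. Their sign is no evidence of stability, since the choice of the genes and, for Slfn8 on HFD and Slfn1, groups without overlap fix it. In the diet comparisons, Slfn8 in TET2 KO was not called with limma-trend (-0.94), with TMM scaling (-0.95) and with a replicate block (-0.97), and ranged from -1.55 to -0.67 with single libraries left out. Slfn8 in WT turned from -0.29 to 0.12 with TMM scaling, which moved the median of those 975 genes by 0.42 and the share of higher genes among those called from 39.4% to 63.6%. For HFD in TET2 KO that scaling moved the median by 0.25 and the share from 38.0% to 64.2%, without turning the sign of any list gene, though no T cell marker was then called. Slfn8 in WT ranged from -0.38 to -0.13 with libraries left out. Slfn1 in WT was called with a replicate block (0.56) and in a fit over 3 groups, added after seeing the data (0.55), and ranged from 0.31 to 0.80. The permutation value of Slfn8 ranged from -0.88 to -0.38, with p from 0.01 to 0.21 in the exact test. The cause of these changes was not tested. Mice of the same number did not deviate together (r from -0.131 to 0.213), so the numbers were not taken as pairs. The block left Slfn8 in WT not called (-0.27).

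Schlafen genes called numbered 2 of 3 listed on chow and 2 of 3 on HFD for genotype and 3 of 4 in WT and 3 of 3 in TET2 KO for diet, where 76.6%, 82.3%, 91.6% and 77% of all listed genes were called. The genotype tables hold Slfn8, which was chosen on those contrasts, so nothing is read from either genotype count or from its changes. In that order the counts were 3, 1, 3 and 2 with TMM scaling, 1, 2, 2 and 3 with a mean of at least 10 counts, 2, 3, 3 and 3 with DESeq2, 3, 2, 4 and 2 with the block, and 0 to 2, 0 to 2, 1 to 3 and 1 to 2 with single libraries left out. Interferon pathway genes called (13, 12, 44 and 13 in that order) became 16, 9, 42 and 17 with TMM scaling and 11, 9, 40 and 12 with the block. They became 4 to 13, 6 to 9, 40 to 42 and 7 to 10 with libraries left out. The lowest were 8, 4, 6 and 5 on chow without WT chow replicate 1 or 2 or TET2 KO chow replicate 1 or 3, 6 on HFD without WT HFD or TET2 KO HFD replicate 1, and 8, 8 and 7 for HFD in TET2 KO without TET2 KO chow replicate 2 or 3 or TET2 KO HFD replicate 2. Schlafen calls fell by more than 1.5 times without WT chow replicate 2 or 3 or TET2 KO chow replicate 1 or 3 on chow, without any HFD library but WT HFD replicate 2 and TET2 KO HFD replicate 1 on HFD, without WT HFD replicate 1 in WT and without TET2 KO chow replicate 3 or TET2 KO HFD replicate 1 in TET2 KO. Of the 5 genes most like Slfn8, 1 was shared with the 5 of highest Spearman rho and 1 to 3 without TET2 KO chow replicate 1 or 3, and of those most like Slfn1, 1 was shared by rho and 3 without WT HFD replicate 1. Fits for Slfn1 that need TET2 KO HFD libraries were not run, since its values there were not analysed. Depth limits Slfn14, Slfnl1 and Slfn5os, and the tables hold only genes that passed the authors' own threshold.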

Other observations

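In the fit over all 4 groups, the log2 fold change for TET2 KO relative to WT had opposite signs on the diets for several other named genes. It was 1.48 on chow and -1.41 on HFD for Mmp28, 1.02 and -1.05 for Ccr2, 0.81 and -0.66 for the interferon-induced GTPase Gbp5, and 0.77 and -0.26 for Cd8a. The difference, HFD minus chow, was -2.89 for Mmp28 (SE 0.70, edgeR adjusted p = 0.137), -2.06 for Ccr2 (SE 0.46, edgeR adjusted p = 0.134), -1.46 for Gbp5 (SE 0.34, edgeR adjusted p = 0.134) and -1.04 for Cd8a (SE 0.32, edgeR adjusted p = 0.191). For Slfn5 it was 0.42 (SE 0.52, edgeR adjusted p = 1). None passed the adjustment over the 9338 genes, of which this fit held 975. The genes named here, Mmp28 and Slfn5 apart, were singled out after their values were seen. The mesothelial marker Msln had -2.32 on chow and 0.96 on HFD, a difference of 3.28 (SE 1.14, edgeR adjusted p = 0.263).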
